A study of Mus musculus with 16 samples.

Results

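The 10 transcription factor genes described here are Fos, Fosb, Fosl1 and Fosl2 of the FOS family, Jun, Junb and Jund of the JUN family, and Egr1, Atf3 and Maff, 10 of the 56748 genes in the counts table. They were chosen by symbol with the differences between the plasmids in these same samples already known, so their levels and differences are given as a description. The number of members called by the fit over all genes is likewise a description, beside the share of all genes called, and supports nothing about them. The study asked which genes respond to Gdf6Y, a growth factor of the BMP family encoded by the male sex-determining gene of the turquoise killifish. TM4 cells, an established mouse line of Sertoli origin grown in serum, were transfected with 2.5 µg plasmid per well and lysed after 24 h. The EV group (6 samples) received the empty vector pcDNA3.1-HA. The gdf6Y group (5 samples) received pcDgdf6Y, and the del9 group (5 samples) received pcDgdf6Ydel9, which encodes a gdf6Y mutant with a small deletion in the prodomain. All 3 groups received plasmid and Lipofectamine, and no untransfected cells were analysed here, so a response to transfection that the groups share cannot be seen.

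AP-1 is a dimer of FOS and JUN proteins that binds DNA through a basic leucine zipper. Immediate early genes are transcribed within minutes of a stimulus by serum, growth factors or stress, without new protein synthesis, and many of their transcripts are short-lived. Fos, Fosb, Jun, Junb and Egr1 are classical examples, whereas Jund and Fosl2 are expressed more steadily in many cells, Atf3 is a stress-induced member of the ATF family, and Maff is a small MAF protein that lacks a transactivation domain. The RNA was taken after 24 h, so the values describe levels long after the addition of DNA and not the first response to it.

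Per sample, 21486850 to 26444903 reads were counted. Of the listed Sertoli markers, Gata4, Kitl, Dhh, Sox9 and Inha had reads in all groups, Wt1 and Dmrt1 were without reads in every sample, and Fshr, Cldn11 and Trf were at or near 0. In EV the mean normalized count was 831 for Gata4 and 707 for Kitl, but 91.9 for Dhh, 43.0 for Sox9 and 35.8 for Inha. The summed level of the markers was 1489 to 1613 normalized counts in gdf6Y, 1567 to 1729 in del9 and 1674 to 1766 in EV, and 1 marker, Gata4, was called lower in gdf6Y against EV (log2 fold change -0.20, edgeR adjusted p = 9.98e-05). Its part in the differences below was not tested. The summed level of the germ cell markers was at most 6.56 normalized counts in any sample. That of the Leydig cell markers was at most 35.8 and that of the endothelial and blood cell markers at most 71.8. The peritubular and smooth muscle markers stood above the Sertoli markers, at 4478 to 4714 in EV, 4710 to 5057 in gdf6Y and 4571 to 4840 in del9. Acta2, of this last list, had a mean of 4530 in EV. In bulk samples, fewer cells that express a gene and less RNA per cell cannot be told apart, and here this includes transfected and untransfected cells of a well. Nothing in the labels states what a replicate number stands for or that samples came from separate cultures, so the spread between them may be technical.

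The sequences upstream of the members hold elements through which such genes are known to be controlled. The 500 bases before to 50 bases after the canonical start were searched on both strands for the AP-1 element TGANTCA, the cAMP response element (CRE) TGACGTCA, the broader TGACNTCA that includes it, the EGR element GCGNGGGCG and the CArG box bound by serum response factor. The 4 stretches below are shown because they hold, in capitals, a CArG box in Fos and Fosb, a CRE-like element in Jun and a CRE in Jund. They are written 5′ to 3′ on the strand of the gene and come from GRCm39.
Fos, chr12:85520335-85520384, plus strand: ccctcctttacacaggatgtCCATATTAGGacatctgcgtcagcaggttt
Fosb, chr7:19044213-19044262, minus strand: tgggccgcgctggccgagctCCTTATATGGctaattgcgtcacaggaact
Jun, chr4:94940477-94940524, minus strand: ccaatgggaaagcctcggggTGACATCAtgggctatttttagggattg
Jund, chr8:71151365-71151412, plus strand: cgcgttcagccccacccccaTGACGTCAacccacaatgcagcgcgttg

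The first base of the box lay 303 bases before the start in Fos and 266 bases before it in Fosb. The element of Jun lay 45 bases and that of Jund 214 bases before the start. A second CRE was found 29 bases before the start of Maff. The CArG box was in 2 of the 10 members and in 2.9% of 21757 protein-coding promoters. The CRE was in 2 members and in 2.71% of promoters, TGACNTCA in 3 members and in 12.2%, TGANTCA in 1 member, Fos, and in 13.2%, and the EGR element in 4 members and in 7.16%. No match in Fosl1, Fosl2, Junb, Egr1 or Atf3 means only that these letters are not in this window at the annotated start.

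Counts were divided by the effective library size and multiplied by its mean over the 16 samples, and these normalized counts are the levels given below. To compare levels between genes they were also divided by the length of the canonical transcript. On that scale Jund was highest in EV at 1643 ± 44.7 normalized counts per kb (SD, n = 6). Next came Fosl2 at 1390 ± 29.6, Fosl1 at 833, Junb at 688, Maff at 585, Jun at 378 and Egr1 at 249. Atf3 at 70.9, Fosb at 37.3 and Fos at 29.6 formed the low end. The order of the means was the same in all 3 groups. In EV the neighbours in this order did not overlap, except Fosb and Fos. Of the classical immediate early genes, Fos and Fosb thus stood far below the steadily expressed Jund and Fosl2, while Junb, Jun and Egr1 lay between. The order depends on the transcript that is counted, since with the shortest annotated coding transcript the EV level would be 5628 per kb for Fosl2, 4349 for Fosl1 and 1809 for Maff.

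**Figure D1:**
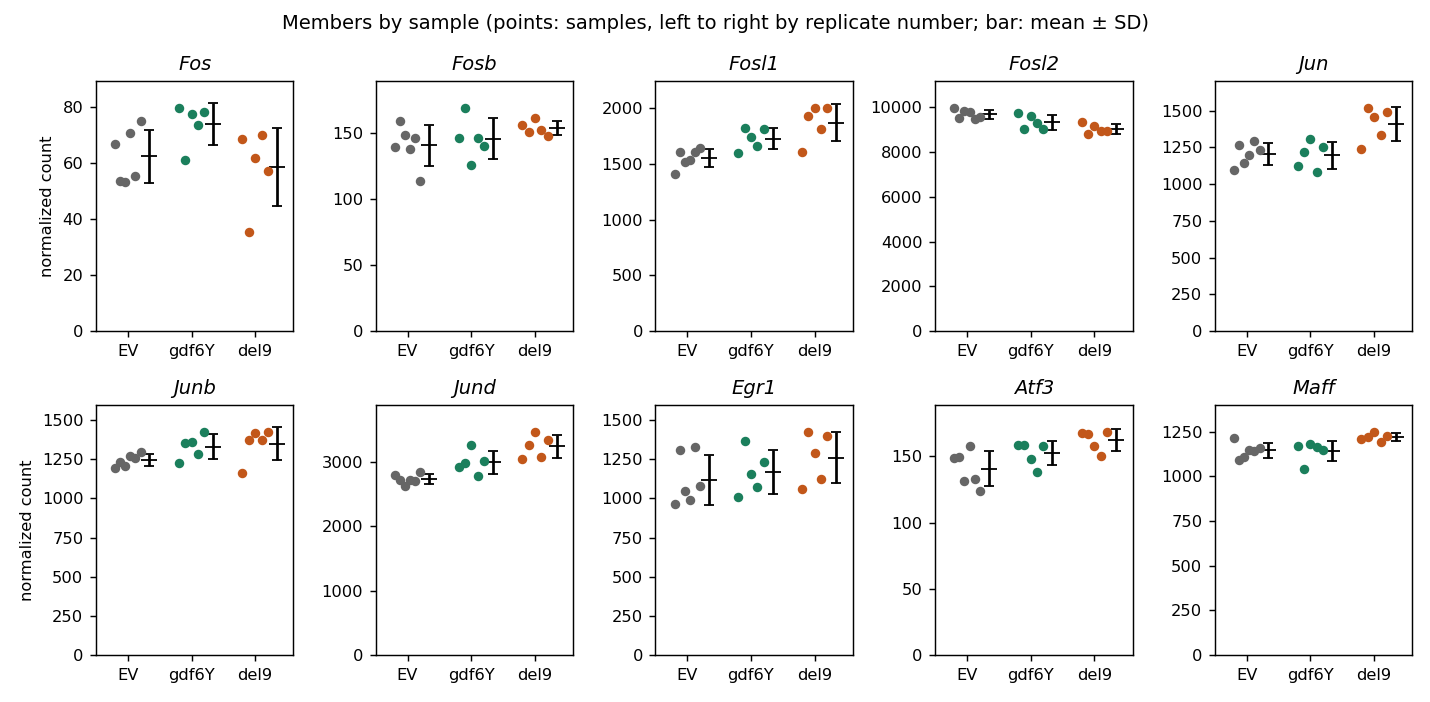
Normalized counts of the 10 genes (vertical axes, each from 0) in EV, gdf6Y and del9 samples, with points in order of replicate number and the mean ± SD beside them. Jund lies higher in all del9 samples than in EV and Fosl2 lower, while Egr1 spreads widely within each group.

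Of the JUN family, Jund encodes the member that is widely expressed and only weakly induced by serum. In EV its normalized count ran from 2630 over a median of 2722 to 2839. In gdf6Y replicates 1 to 5 it was 2920, 2990, 3266, 2783 and 3013. In del9 replicates 1 to 5 it was 3056, 3271, 3476, 3073 and 3351. All del9 samples were above all EV samples, and gdf6Y lay between with overlap on both sides. The log2 fold change was 0.25 for del9 against EV (SE 0.03 in the fit and 0.04 from the spread of the samples) and 0.13 for gdf6Y against EV (SE 0.03 and 0.04). For gdf6Y against del9 it was -0.11 (SE 0.03 and 0.05).

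Jun encodes the principal partner of FOS in AP-1. Its normalized count in EV had a lowest value of 1098, a median of 1213 and a highest value of 1293. The gdf6Y samples gave 1122, 1217, 1306, 1083 and 1252, much like EV. The del9 samples gave 1242, 1518, 1459, 1331 and 1490, of which 4 were above every EV and gdf6Y sample and replicate 1 was within their range. Jun had a log2 fold change of -0.01 for gdf6Y against EV (SE 0.04 in the fit and 0.06 from the samples), 0.23 for del9 against EV (SE 0.03 and 0.07) and -0.23 for gdf6Y against del9 (SE 0.04 and 0.07).

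Junb, which encodes a weaker activator than JUN, ran from 1197 over 1247 to 1296 in EV. It was counted at 1228, 1355, 1364, 1286 and 1428 in gdf6Y. In del9 it was 1164 in replicate 1 and 1373, 1418, 1371 and 1427 in the others. The groups overlapped, in del9 through replicate 1 alone, which lay below all EV samples. The log2 fold change was 0.10 for gdf6Y against EV (SE 0.04 in the fit and from the samples) and 0.12 for del9 against EV (SE 0.03 and 0.06). Between gdf6Y and del9 it was -0.02 (SE 0.04 and 0.07).

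The FOS family did not move as a group. Fosl1, which encodes FRA1, ran from 1413 over 1570 to 1642 in EV. It was counted at 1602, 1825, 1744, 1657 and 1811 in gdf6Y and at 1610, 1929, 2000, 1813 and 2003 in del9. Replicate 1 was lowest in each of the 3 groups, and in gdf6Y and del9 it lay within the range of EV. Fosl1 had a log2 fold change of 0.16 for gdf6Y against EV (SE 0.03 in the fit and 0.05 from the samples) and 0.27 for del9 against EV (SE 0.03 and 0.07), the latter the largest of the members called in any comparison.

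Fosl2, which encodes FRA2, went the other way. Its normalized count ran from 9465 over 9665 to 9979 in EV. It was 9735, 9016, 9625, 9305 and 9022 in gdf6Y. In del9 it was 9326, 8795, 9154, 8947 and 8953, below every EV sample. Fosl2 had a log2 fold change of -0.10 for del9 against EV (SE 0.03 in the fit and 0.02 from the samples), a small difference measured on the member with the most reads. It was -0.05 for gdf6Y against EV and 0.05 for gdf6Y against del9 (SE 0.03 in each fit).

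Fos and Fosb were counted at low levels, and their errors are larger. Fos had 37 to 83 raw reads per sample. Its normalized count ran from 53.4 over 61.1 to 75.1 in EV, with 79.8, 61.2, 77.5, 73.7 and 78.3 in gdf6Y and 68.7, 35.4, 61.8, 70.3 and 57.2 in del9. The log2 fold change of gdf6Y was 0.25 against EV (SE 0.12 in the fit and 0.11 from the samples) and 0.34 against del9 (SE 0.12 and 0.19). The groups overlapped in each comparison, and neither difference was called. Without del9 replicate 2, whose level of 35.4 was the lowest of all, the second value was 0.20. Fosb ran from 114 over 143 to 159 in EV, from 126 to 169 in gdf6Y and from 148 to 162 in del9. Its log2 fold change was 0.04 for gdf6Y against EV and 0.13 for del9 against EV (SE 0.08 in each fit).

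Egr1 encodes a zinc finger factor that binds the GC-rich EGR element. It ran from 962 over 1062 to 1328 in EV. In gdf6Y it was counted at 1006, 1366, 1154, 1073 and 1231, and in del9 at 1061, 1427, 1289, 1126 and 1396. The groups overlapped in each comparison, and the coefficient of variation within them was 12.0% to 14.2%. The log2 fold change was 0.18 for del9 against EV and 0.06 for gdf6Y against EV. The SE of the first was 0.04 in the fit but 0.12 from the samples, 3.29 times as large. The quasi-likelihood fit draws the spread of each gene towards that of genes with a like level, and Egr1 spread more than these. With the robust form of this step, added after the data were seen, the SE was 0.12 and Egr1 was not called.

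Atf3 was counted at 124 to 158 in EV with a median of 141. It was 159, 159, 148, 138 and 158 in gdf6Y and 168, 167, 158, 150 and 169 in del9. Its log2 fold change against EV was 0.11 for gdf6Y and 0.21 for del9 (SE 0.08 in each fit), and neither was called. Maff ran from 1093 over 1146 to 1218 in EV. It was counted at 1172, 1041, 1179, 1165 and 1150 in gdf6Y and at 1210, 1223, 1251, 1190 and 1224 in del9. All gdf6Y samples were below all del9 samples, with a log2 fold change of -0.09 (SE 0.04 in the fit and from the samples) that was not called. Against EV the log2 fold change of Maff was 0.09 for del9 and -0.00 for gdf6Y.

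**Figure D2:**
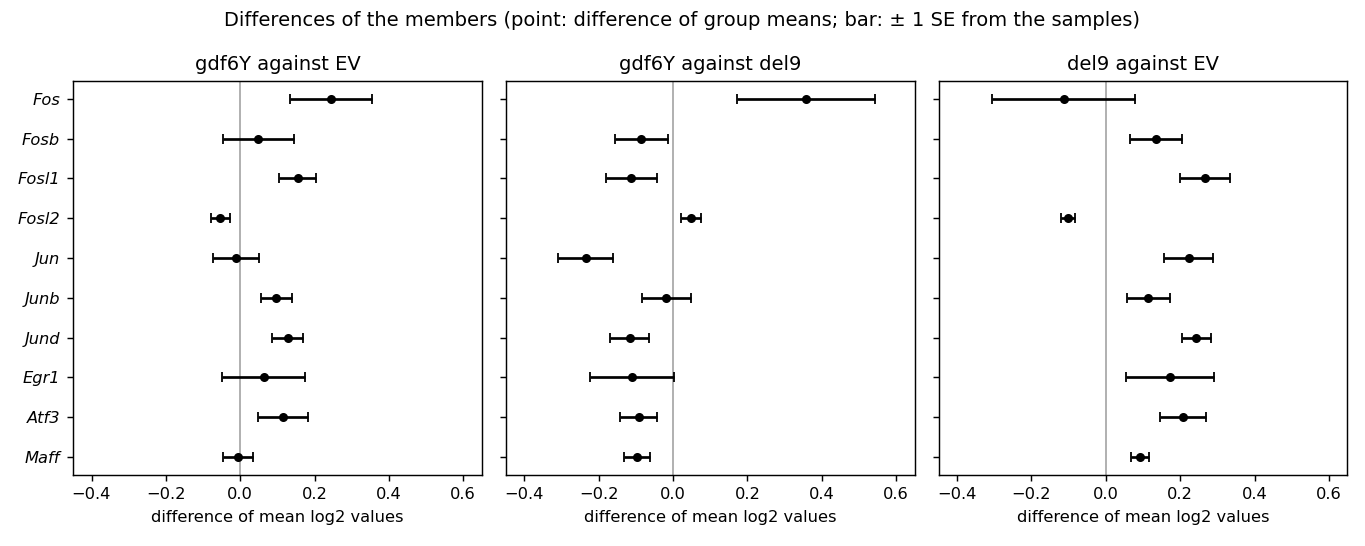
Difference of the mean log2 values (horizontal axes, log2 of normalized count plus 2) of the 10 genes in the 3 comparisons, with bars of ± 1 SE from the samples. Against EV most del9 differences lie to the right, and Fosl2 and Fos lie to the left. Fos has the widest bars in the comparisons that include del9, and in gdf6Y against EV the bars of Egr1 and Fos are the widest and much alike.

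A gene was called at an adjusted p below 0.05 in edgeR's quasi-likelihood test over all genes with a read. On simulated data 12.1% to 15.8% of such calls were false, more than this threshold stands for. In gdf6Y against EV, 2 members were called higher, Fosl1 and Jund, and none lower, where 1.7% of 26316 genes were called higher and 3.38% lower. Of the 10781 genes with a mean of at least 50 normalized counts, as all members have, 12.2% were called in either direction in this comparison. No member had groups that did not overlap, against 5.96% of those genes. Without gdf6Y replicate 3 only Fosl1 was called, and without gdf6Y replicate 1 it was 4 members, with Junb and Egr1 added. With the replicate number as a block Junb was called too.

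In gdf6Y against del9, no member was called higher and 1, Jun, was called lower, where 0.599% of 25878 genes were called higher and 0.41% lower. Among the genes with at least 50 normalized counts 1.92% were called, and the groups of 2.39% did not overlap, as was the case for Maff. Jun was not called when genes with few reads were left out, by filterByExpr or by requiring 10 counts in every sample. With the replicate number as a block 3 members were called lower, Fosl1, Jun and Jund. The count was 2 without gdf6Y replicate 2 or 3, 4 without del9 replicate 1 and 3 without del9 replicate 4.

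In del9 against EV, 5 members were called higher, Fosl1, Jun, Junb, Jund and Egr1, and 1, Fosl2, was called lower. Of 26226 genes, 4.82% were called higher and 4.43% lower. Among the genes with at least 50 normalized counts 20.6% were called in either direction, and the groups of 8.57% did not overlap, as for Jund and Fosl2. The calls of Junb and Egr1 were lost with DESeq2 and with either filter on low counts. The calls of Fosl1, Fosl2, Jun and Jund were made in each of the 24 alternatives. The median log2 fold change of the 10 members was 0.08 for gdf6Y against EV, -0.09 for gdf6Y against del9 and 0.15 for del9 against EV, and that of all genes tested was -0.00, 0.01 and -0.01. The contrasts share samples, so these counts are not independent of each other.

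The libraries differed by the length of the genes, and most members are short. The protein-coding genes tested have medians of 5751 exonic bases and 50.3% GC. Fosl2, with 10397 bases, and Fosb, with 6243, are longer than that, and the other members range from 1667 in Jund to 4496 in Egr1. The GC share of the members ran from 51.9% in Fos to 67.2% in Jund. The slope of a library's log2 level on log10 of gene length was 0.03 to 0.11 in EV, -0.13 to 0.00 in gdf6Y and -0.07 to 0.02 in del9. Short genes thus stood lower in all EV libraries than in those of the other groups. After a correction for length the log2 fold change of del9 against EV was 0.19 for Jund, 0.22 for Fosl1, 0.19 for Jun and 0.07 for Junb, and the call of Junb was lost. In gdf6Y against EV it was 0.08 for Jund, which was no longer called, and 0.11 for Fosl1. With a GC correction added after the data were seen, Jund had 0.18 in del9 against EV and 0.08 in gdf6Y against EV, where it was no longer called, and Junb had 0.07 in del9 against EV and lost its call. What made the libraries differ was not tested.

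Within the groups, some members followed the replicate number more than most genes did. Egr1 was highest in replicates 2 and 5 and lowest in replicates 1 and 4 in each of the 3 groups. The replicate number accounted for 94.2% of its variance within groups, more than in 99.4% of the 10781 genes, whose median was 50.4%. The shares were 90.4% for Fosl2, 86.2% for Fosl1, 74.9% for Jun, 71.5% for Junb, 71.0% for Fos, 64.1% for Fosb, 51.9% for Atf3, 45.6% for Maff and 44.8% for Jund, the last pair below the median of all genes. Averaged over the groups, Egr1 deviated by 0.22 on the log2 scale in replicate 2 and by -0.22 in replicate 1, which is more than its difference between any of the plasmids. Fosl1 and Jun were also lowest in replicate 1, at -0.15 and -0.13, and Fosl2 was highest there, at 0.05. The choice of the members used differences between groups, and this spread within groups is separate from it.

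**Figure D3:**
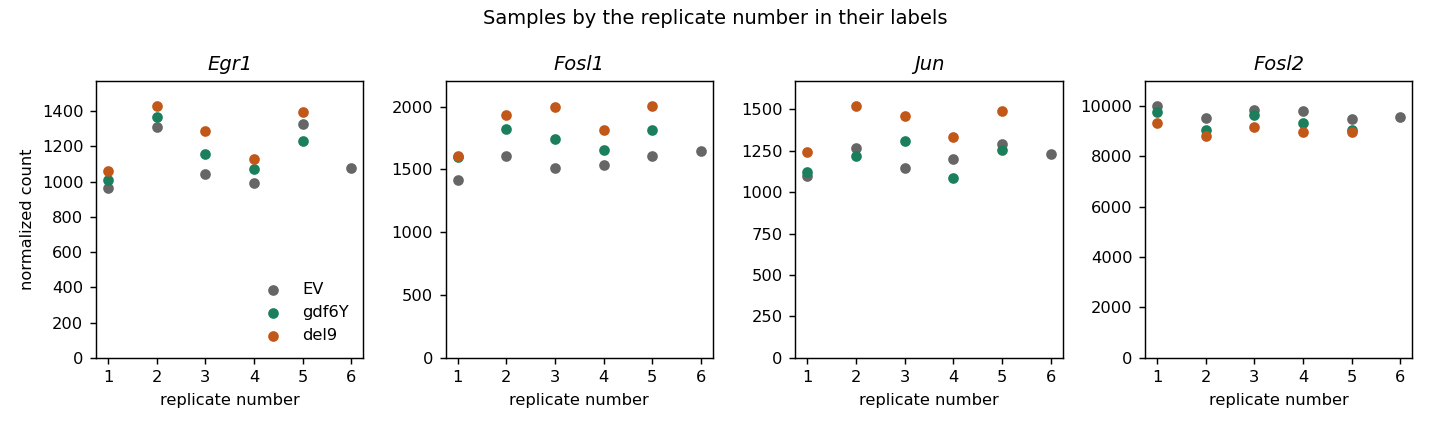
Normalized counts (vertical axes, from 0) of Egr1, Fosl1, Jun and Fosl2 by the replicate number in the labels, with a colour for each group. Egr1 is high at numbers 2 and 5 and low at 1 and 4 in all groups, and Fosl2 is high at 1.

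The members' deviations from their group means were correlated over the 16 samples, with permutations within groups (100000, two-sided) and Benjamini-Hochberg adjustment over 45 pairs. Of these, 8 pairs passed with Pearson's r, and 5 without del9 replicate 1. The permutations took the samples of a group as exchangeable, while same-numbered samples of the groups deviated together. The permutation p-values given here may therefore be too small, and nothing is concluded from the passing of a pair. Among the 8, some did not pass with Spearman's rho. These were Fosl1 with Jun, Jun with Junb, Fos with Egr1 and Fosl1 with Fosl2 (adjusted permutation p = 0.0602, 0.0602, 0.0601 and 0.0944). Fosl1 and Junb were closest, with r = 0.90 (permutation p = 7e-05, adjusted p = 0.00315) and Spearman's rho = 0.84 (permutation p = 0.00025, adjusted p = 0.0113). Without the 2 samples farthest in Fosl1, del9 replicate 1 and EV replicate 1, r was 0.83. Only 0.111% of genes were as close to Fosl1, in either direction, as Junb was. Jun and Egr1 had r = 0.82 (permutation p = 0.00061, adjusted p = 0.00686) and rho = 0.79 (permutation p = 0.0009, adjusted p = 0.0135), with r = 0.79 without 2 samples. As close to Egr1 as Jun was were 6.06% of genes, and 1.73% were as close to Jun as Egr1 was. Fosl2 and Egr1 went in opposite directions, with r = -0.76 (permutation p = 0.00167, adjusted p = 0.015) and rho = -0.78 (permutation p = 0.00083, adjusted p = 0.0135), and r = -0.68 without 2 samples. However, 10.2% of all genes were as close to Egr1 as Fosl2 was.

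Samples with the same replicate number are not independent of each other, and the pairs changed once that number was also removed. Then 4 pairs had an adjusted permutation p below 0.05. The permutations mixed the replicate numbers after these had been removed, so these p-values may be too small. The pairs are a description, and nothing is concluded from their passing. Fosl1 and Junb had r = 0.79 (adjusted permutation p = 0.017), Junb and Jund 0.81 (adjusted permutation p = 0.017), Jun and Jund 0.79 (adjusted permutation p = 0.017) and Fosl1 and Jund 0.70 (adjusted permutation p = 0.03). Jund, of which no pair had passed before, was in 3 of the 4. Jun with Junb (r = 0.52) and Fosl1 with Jun (r = 0.49) no longer passed. For Egr1 the values fell to r = 0.29 with Jun and 0.12 with Fosl2, neither of which passed. Among 30 relations with the length slope, the GC slope and the total count of the library, none passed with Pearson's r, 4 had an unadjusted permutation p below 0.05, and 1 passed with Spearman's rho. The permutations for these relations also took the samples of a group as exchangeable. Fosl1 and the total count had r = -0.56 (permutation p = 0.0127, adjusted p = 0.166) and rho = -0.73 (permutation p = 0.00077, adjusted p = 0.0231), with r = -0.47 without the 2 samples farthest in total count.

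**Figure D4:**
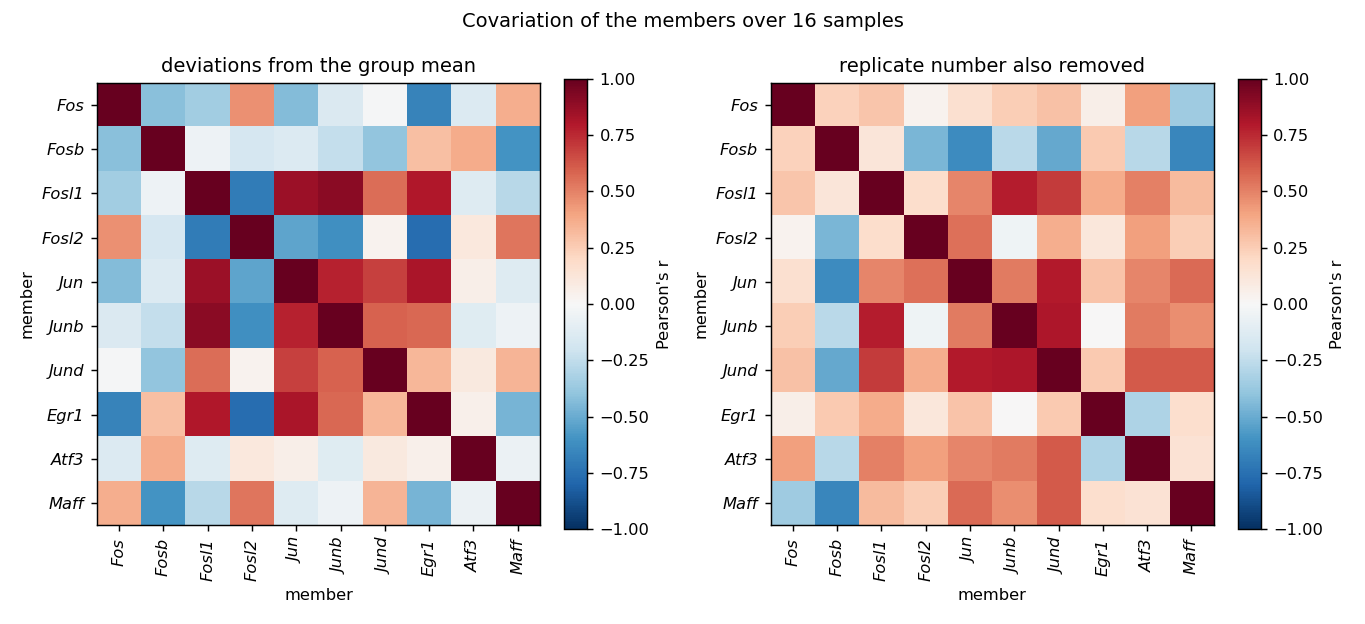
Pearson's r between the 10 genes over 16 samples, as deviations from the group mean (left) and after the replicate number was also removed (right), from -1 in blue to 1 in red. The red block of Fosl1, Jun, Junb and Egr1 on the left loses Egr1 on the right, where Jund joins Fosl1, Jun and Junb.

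The gene most like each member over all 16 samples was sought among 10780 genes with at least 50 normalized counts, by Pearson's r of log2 levels and without a test. For Jun these were Rhob (0.95), Myc (0.94) and Errfi1 (0.93), which all stood in the list of other immediate early genes. For Egr1 they were Fhdc1 (0.97), Cdca7 (0.97) and Wdr5 (0.96), and for Fos they were Tuft1 (0.89), Ptov1 (0.86) and Acat2 (0.86). For Atf3 they were Brsk1 (0.82), Ccnq (0.81) and Pecr (0.80), and for Maff Snx25 (0.86), Eif4ebp1 (0.86) and Cdkn2a (0.86). Differences between plasmids, replicate numbers and library trends all enter these values.

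Genes that encode dimer partners and related leucine zipper proteins were downregulated where they were called against EV. Of 16 with reads, 6 fell and none rose in del9, and 4 fell and none rose in gdf6Y. In gdf6Y against del9, 1 rose and none fell. With the length correction the gdf6Y count was 1 in place of 4, and without del9 replicate 3 the del9 count was 3 in place of 6. Of genes with at least 50 normalized counts 20.6% were called in del9 and 12.2% in gdf6Y against EV, and 1.92% in gdf6Y against del9. Beside these shares nothing is read from the counts of the list. Maf, which encodes a large MAF protein, was counted at 896 ± 106.6 (SD, n = 6) in EV, 848 ± 85.6 (SD, n = 5) in gdf6Y and 717 ± 119 (SD, n = 5) in del9. Its log2 fold change was -0.32 for del9 against EV (SE 0.04, edgeR adjusted p = 1.13e-12) and 0.25 for gdf6Y against del9 (SE 0.04, edgeR adjusted p = 1.22e-05), and neither was called in the robust fit. For the genes of all lists the SE and adjusted p are those of the fit alone. Both can be too small where a gene spreads more than genes with a like level, as the SE of Egr1 was by a factor of 3.29 in del9 against EV. Bach1, a repressor that pairs with small MAF proteins, had -0.14 for del9 against EV (SE 0.04, edgeR adjusted p = 0.0176).

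The 31 other immediate early genes with reads moved in both directions. In del9 against EV 7 rose and 5 fell. In gdf6Y against EV 3 rose and 5 fell, and against del9 1 rose and 3 fell. With DESeq2 the calls against EV were 8 in place of 12 in del9 and 3 in place of 8 in gdf6Y, and with at least 10 counts in every sample those against del9 were 2 in place of 4. The shares called among all genes with at least 50 normalized counts were 20.6%, 12.2% and 1.92% in these comparisons. Nothing is read from the counts of the list. Ier2 was counted at 620 ± 40.3 (SD, n = 6) in EV and 737 ± 64.2 (SD, n = 5) in del9 (log2 fold change 0.25, SE 0.04, edgeR adjusted p = 3.69e-07). Errfi1, a feedback inhibitor of the EGF receptor, and Rhob, a small GTPase, were downregulated in gdf6Y against del9 by 0.17 and 0.15 on the log2 scale (edgeR adjusted p = 1.95e-05 and 0.000686), as Jun was called lower there. The call of Rhob was lost with DESeq2 and the filters on low counts, and that of Errfi1 was made in all 23 alternatives. Dusp1, a phosphatase that inactivates MAP kinases, fell by 0.23 in del9 against EV (SE 0.04, edgeR adjusted p = 1.22e-06), a call lost with DESeq2, the filters on low counts and the robust fit. Klf10, known as a target of TGF-beta signalling, was the only gene of this list higher in both comparisons of gdf6Y. It was counted at 1006 ± 70.7 (SD, n = 6) in EV, 1212 ± 76.7 (SD, n = 5) in gdf6Y and 990 ± 73.9 (SD, n = 5) in del9, and was upregulated by gdf6Y against EV (log2 fold change 0.27, edgeR adjusted p = 2.98e-10) and against del9 (0.29, edgeR adjusted p = 3.82e-10), in all alternatives.

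Of 24 genes for upstream kinases and serum response factors, 4 were upregulated and 2 downregulated in del9 against EV, and 2 and 3 in gdf6Y against EV. None was called in gdf6Y against del9 by edgeR or DESeq2, and 0 had an unadjusted p below 0.05. With the length correction 4 in place of 6 were called in del9 and 2 in place of 5 in gdf6Y. Among all genes with at least 50 normalized counts the shares called against EV were 20.6% in del9 and 12.2% in gdf6Y. In gdf6Y against del9 the share was 1.92%, and nothing is read from the counts of the list. Srf, which encodes the factor that binds the CArG box, was counted at 2292 ± 51.1 (SD, n = 6) in EV and 2523 ± 129 (SD, n = 5) in del9 (log2 fold change 0.14, SE 0.03, edgeR adjusted p = 0.000129). Map2k3, a kinase upstream of p38, was upregulated against EV by 0.14 with gdf6Y and 0.15 with del9. Braf, a kinase of the ERK pathway, was downregulated by 0.17 in each of these comparisons, and with the length correction the call for gdf6Y was lost.

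Of 21 genes described as targets of AP-1, 7 were upregulated and 3 downregulated in del9 against EV, 1 and 3 in gdf6Y against EV, and 1 and 1 in gdf6Y against del9. With DESeq2 6 and 2 were called in del9 and gdf6Y against EV, and none in gdf6Y against del9 with at least 10 counts in every sample. The shares called among all genes with at least 50 normalized counts were 20.6% and 12.2% against EV and 1.92% in gdf6Y against del9. Nothing is read from the counts of the list. Hbegf, an EGF receptor ligand, was counted at 1136 ± 103 (SD, n = 6) in EV, 1239 ± 80.1 (SD, n = 5) in gdf6Y and 1426 ± 146 (SD, n = 5) in del9. Its log2 fold change was 0.33 for del9 against EV (SE 0.03, edgeR adjusted p = 2.38e-18), 0.13 for gdf6Y against EV (SE 0.04, edgeR adjusted p = 0.0156) and -0.20 for gdf6Y against del9 (SE 0.04, edgeR adjusted p = 9.88e-05). The calls of the latter pair were lost with DESeq2 and with the filters on low counts. The SE and adjusted p of Hbegf are those of the fit alone. The 3 downregulated genes were the inflammatory Ccl2, Cxcl1 and Ptgs2 in each comparison with EV, with Cxcl1 at -0.51 for gdf6Y (edgeR adjusted p = 2.91e-10) and -0.44 for del9 (edgeR adjusted p = 8.64e-09). In the robust fit Cxcl1 was called in gdf6Y alone, and Ccl2 and Ptgs2 in neither comparison.

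Genes of the integrated stress response, which induces Atf3 in many cells, moved in both directions. Of its 12 listed genes 1 was upregulated and 5 downregulated in del9 against EV, 1 and 3 in gdf6Y against EV, and 2 and 0 in gdf6Y against del9. In the robust fit 2 were called in del9 against EV, without Nupr1, Vldlr, Ddit4 and Chac1, and with DESeq2 2 in gdf6Y against EV and none in gdf6Y against del9. The shares called among all genes with at least 50 normalized counts were 20.6%, 12.2% and 1.92% in these comparisons. Nothing is read from the counts of the list. Ddit3, which encodes the stress factor CHOP, was upregulated by 0.13 in del9 against EV (SE 0.04, edgeR adjusted p = 0.00939), while Slc7a11, a cystine transporter, and Chac1, a glutathione-degrading enzyme, fell by 0.26 and 0.24. Of 10 interferon-stimulated genes 8 were downregulated in del9 and 7 in gdf6Y, each against EV. In gdf6Y against del9 none was called, and 0 had an unadjusted p below 0.05. Over the alternatives 7 to 10 were called in del9 and 5 to 9 in gdf6Y against EV. Of all genes with at least 50 normalized counts 20.6% and 12.2% were called there. The 7 BMP-responsive genes were all upregulated in gdf6Y against EV and against del9, by 0.42 to 1.58 and 0.35 to 1.45 on the log2 scale, larger than any difference of the 10 members in the comparison with EV. The study had reported Id1, Id2, Id3, Smad6, Smad7 and Smad9 as upregulated by gdf6Y in these TM4 cells. This list was written with earlier results of these data known, so its counts are a description and support nothing. Atoh8 had the largest value, and its call against EV was lost with DESeq2. Of the 7 genes 2 were also called higher in del9 against EV. Id1 had a log2 fold change of 0.26 (edgeR adjusted p = 2.56e-10), called in all 24 alternatives. Id2 had 0.15, a call lost in 12 of them.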

How the data were processed

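Per the labels and the study's methods, reads of strand-specific poly(A) libraries from 300 ng RNA were aligned with STAR 2.7.10a to GRCm39, deduplicated by UMI and counted on the gene's strand with featureCounts 2.0.3. The deposited values are these whole-number counts without normalization, 21486850 to 26444903 per sample. The authors left out a sixth gdf6Y and a sixth del9 sample. The killifish transcript is not a mouse gene and is not counted.

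The members and gene lists were chosen with earlier results of these data known. Symbols, positions and lengths came from GENCODE M39, which is not the release used for counting; it matched 56017 of 56748 identifiers and all 10 members. Genes on the opposite strand overlap most members.

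Every gene with a read in either group was tested with edgeR 4.0.16 (R 4.3.3; TMM, quasi-likelihood with the legacy dispersion, 2 groups per model, Benjamini-Hochberg, threshold 0.05). Log2 values used a pseudocount of 2. The genes named besides the members are those of each list called in both gdf6Y comparisons, up to 4 per comparison with the largest called change, and the 3 closest in pattern to Fos, Jun, Egr1, Atf3 and Maff. Myc is named for its likeness to Jun. Tested on simulated data with 200 changed genes per set, the steps recovered 73.0% to 77.5% of changes of 0.3 and 89.5% to 90.5% of changes of 0.6 on the log2 scale. Of the calls there 12.1% to 15.8% were false, more than the threshold of 0.05 stands for. Calls with an adjusted p near the threshold are therefore less certain than it implies.

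Same-numbered samples deviated together over 10074 genes, with r of 0.148 to 0.417 in the 5 pairs of gdf6Y and EV and 0.220 to 0.382 in those of gdf6Y and del9. All of these passed the check for pairing, an r above 0.1. The main fits and their calls do not use the pairing, and only the alternatives with the replicate block do. For del9 and EV 4 of 5 pairs passed 0.1. Alternatives were DESeq2 1.42.0, other scalings, filters, dispersions and models, the replicate block, length and GC corrections and leaving out each replicate. The GC corrections and the robust dispersion were added after the data were seen.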

Additional observations from a re-analysis of the deposited data

Results flagged for a closer look

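In 60 groups of a gene or of total counts, a sample stood apart from the others of its group by Dixon's criterion at the 95% level in 3, and chance gives about 1 in 20. Junb in del9 had replicate 1 at 1164 normalized counts and the others at 1371 to 1427, a gap of 0.787 of the range. Maff in gdf6Y had replicate 2 at 1041 and the others at 1150 to 1179, a gap of 0.791 of the range. The total count in del9 was 24608410 in replicate 3 and 25650188 to 26071045 in the others, a gap of 0.712 of the range.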

How the results depend on the processing

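No member changed the sign of a called value under any alternative. In gdf6Y against EV, 1338 genes were called, 2061 with the replicate block and 2158 with the replicate block and the GC correction, and 794 (without gdf6Y replicate 5) to 1751 when a replicate was left out. Of the members 2 were called, 1 with the length correction, 1 with the GC correction and 1 to 4 when a replicate was left out. Of the genes in the lists, without the BMP-responsive genes and the cell type markers, 32 were called, and 21 with DESeq2. In gdf6Y against del9, 261 genes were called, 81 with DESeq2, 45 with filterByExpr, 44 with at least 10 counts in every sample, 168 with the edgeR 4 dispersion, 661 with the replicate block, 639 with the block and the length correction and 634 with the block and the GC correction, and 160 (without del9 replicate 2) to 441 (without del9 replicate 1) when a replicate was left out. Of the members 1 was called, 0 with either filter, 3 with the replicate block alone, with the length or with the GC correction, and 1 to 4 when a replicate was left out. Of the genes in the same lists, again without the BMP-responsive genes and the cell type markers, 9 were called, 4 with DESeq2, 2 with either filter, 17 with the block, 18 with the block and the length correction, 17 with the block and the GC correction and 5 to 13 when a replicate was left out. In del9 against EV the calls were 52.1% higher, but 36.6% with total counts as the scaling. There the numbers did not pair the samples by the check, and with the block 7 members were called in place of 6, with Maff added. Covariation gave 8 pairs and 5 (without del9 replicate 1) to 10 when a replicate was left out. With the replicate block it gave 4, but there EV replicate 6 carries no information. The permutation p-values may be too small with and without the block. The value of Jund in del9 against EV was 0.18 with the GC correction, alone or with the block. The causes of these shifts were not tested. Fos had 37 to 83 reads per sample.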
